A study of Mus musculus with 88 samples.

Results

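Mouse Dux and 6 genes known to act on it were examined: Duxf3, the Dux gene of the tables, the activators Dppa2 and Dppa4, and the repressors Smchd1, Trim28, Zmym2 and Chaf1a. They were taken by symbol for their known roles, with earlier results of these data known. They were 7 of the 55364 genes in each of 2 tables of transcript abundance. The unit of both tables is TPM, a transcript abundance in which read numbers are divided by the length of the gene and set to one common total per library, so that levels of different genes can be set side by side.

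Total RNA was measured in 2 settings, mouse embryonic stem cells (mESCs) and late 2-cell embryos, all labelled wild-type. The mESCs were male, of the strain hybrid C57BL/6 / 129, grown with LIF, 0.5 uM PD0325901 (a MEK inhibitor) and 3 uM CHIR99021 (a GSK3 inhibitor), and transfected with plasmids by lipofection. Groups of 2 libraries were ES_Empty, the control, and ES_Dux, ES_Obox3, ES_Obox5 and ES_Obox6, each named for the gene on the plasmid; the Obox genes encode homeodomain proteins of oocytes and early embryos. Another 9 groups had 1 library each, for Obox1, Obox2, Obox7, Obox8, the constructs labelled Obox4ps27 and Obox4ps35, and Crxos1, Crxos2 and Crxos3. The time from transfection to harvest, the promoter of these plasmids and the share of cells that took them up are not stated in the labels. The embryo groups had 2 libraries each: embryos made by intracytoplasmic sperm injection (ICSI_L2C, strain BDF1 x BDF1), and embryos of strain BDF1 made by somatic cell nuclear transfer (SCNT) of cumulus cell nuclei and injected with 10 ng/µl of EGFP mRNA (SCNT_EGFP_L2C) or of Obox3 mRNA (SCNT_Obox3_L2C). The sperm-injected embryos differed from the cloned ones also in strain label and in having received no labelled mRNA, and these differences cannot be told apart from the way the embryos were made.

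Dux is a double-homeodomain transcription factor that is transcribed briefly in the 2-cell mouse embryo and, when expressed in mESCs, turns on genes of that stage such as the Zscan4 family. DPPA2 and DPPA4 form a heterodimer that binds chromatin and is needed for Dux to be activated in mESCs. In mESCs Dux is kept silent by several repressors: SMCHD1, a structural maintenance of chromosomes protein that silences repeat clusters; TRIM28 (KAP1), a SUMO ligase and corepressor that recruits H3K9 methylation; ZMYM2, a zinc-finger protein that binds SUMO and the LSD1-CoREST complex; and CHAF1A, the large subunit of the histone chaperone CAF-1.

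Duxf3 lies on chromosome 10 (58229505 to 58233089; RefSeq, GRCm38.p6, the patch of the mm10 assembly used for all positions). Dppa4 (48283735 to 48294292) and Dppa2 (48310274 to 48319513) are neighbours on chromosome 16, with 15981 bases and 0 other RefSeq genes between them. Smchd1 (71344489 to 71475366) and Chaf1a (56040416 to 56068026) are on chromosome 17, Trim28 on chromosome 7 (13024152 to 13031032) and Zmym2 on chromosome 14 (56886529 to 56962358). All are annotated as protein-coding.

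Promoter sequences were in the RefSeq table (GRCm38.p6) for 5 of the 7 genes, all but Dppa2 and Dppa4. The 250 bases before the start that these sequences use are shown for Duxf3, the silenced gene, and for Zmym2. Zmym2 was the repressor whose level differed most in cells given Obox3 or Obox5. The bases run 5′ to 3′ on the gene's strand, with CpG dinucleotides in capitals because they differ so much in number. The Zmym2 window runs past 56886529, the gene start given above, so its last bases lie inside the gene. The Smchd1 window used below overlaps its gene as well.
Duxf3, chr10:58233090-58233339, minus strand: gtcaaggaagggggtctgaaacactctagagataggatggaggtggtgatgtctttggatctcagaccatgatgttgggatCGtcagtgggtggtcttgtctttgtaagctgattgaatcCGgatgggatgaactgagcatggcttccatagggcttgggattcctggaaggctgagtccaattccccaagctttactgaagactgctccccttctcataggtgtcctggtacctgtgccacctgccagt
Zmym2, chr14:56886353-56886602, plus strand: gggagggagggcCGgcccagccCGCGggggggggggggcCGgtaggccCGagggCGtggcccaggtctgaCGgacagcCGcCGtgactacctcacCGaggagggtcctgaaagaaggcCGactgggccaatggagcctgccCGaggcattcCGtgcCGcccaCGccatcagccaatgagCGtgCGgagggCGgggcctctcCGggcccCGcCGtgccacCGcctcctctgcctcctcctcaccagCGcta

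The Duxf3 window held 2 CpG dinucleotides and 51.2% G or C, while the Zmym2 window held 23 and 74.4%. The other repressors had CpG-rich windows too, with 33 for Smchd1, 28 for Chaf1a and 17 for Trim28, against a median of 6 over the 27025 promoters of the table. A count as low as that of Duxf3 was common, since 29.58% of all promoters had 2 or fewer. The 5 windows were searched on both strands for the letters TAATCC, a core that homeodomain proteins of the Obox kind can bind, and held none. These letters were in 6.383% of all promoters of the same length.

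Between 48.9 and 73.8% of the total TPM of an mESC library, and 57.4 to 72.6% of that of an embryo library, belonged to its 10 most abundant genes, so TPM of other genes move when these do. For that reason each comparison was fitted on TPM as deposited and again after the libraries were scaled by the median ratio of their genes. Changes are those of TPM as deposited unless scaling is named, and not every change is given in both forms. Scaling moved the median of all genes from -0.97 to -0.04 on the log2 scale in ES_Dux against ES_Empty, from -0.42 to 0.00 in ES_Obox3 and from -0.20 to 0.01 in ES_Obox5. A gene was called when its adjusted p was under 0.05 and its log2 fold change on log2(TPM + 1) at least 1 in size, by limma with Benjamini-Hochberg adjustment over all genes; "rose" and "fell" are used for called changes alone. One TPM stood for 2.27 to 7.37 reads per kb of gene in the mESC libraries and for 5.06 to 13.9 in those of embryos. All comparisons with ES_Empty share its 2 libraries, so they are not independent of each other. ES cell markers were present in every mESC library (7 of 7 above 0), with a summed level of 999.5 to 1154 TPM in ES_Empty and 320.9 to 606.6 TPM in the ES_Dux, ES_Obox3, ES_Obox5 and ES_Obox6 libraries. In bulk RNA, fewer cells of a type and less RNA per cell cannot be told apart.

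In the control mESCs the repressors and activators were all well above Dux. Trim28 was the highest, with 498.3 and 439.1 TPM in the ES_Empty libraries, above 99.18% of the 16299 genes that averaged at least 1 TPM. Dppa2 (41.6 and 32.7 TPM) and Dppa4 (38.8 and 37.7 TPM) came next, at overlapping levels. Chaf1a had 20 and 17.6 TPM, Zmym2 13.1 and 9.37 TPM and Smchd1 6.28 and 5.40 TPM, in an order without overlap between neighbours. Duxf3 was listed at 0 in one ES_Empty library and at 0.342 TPM, or 1.67 reads per kb, in the other.

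**Figure D1:**
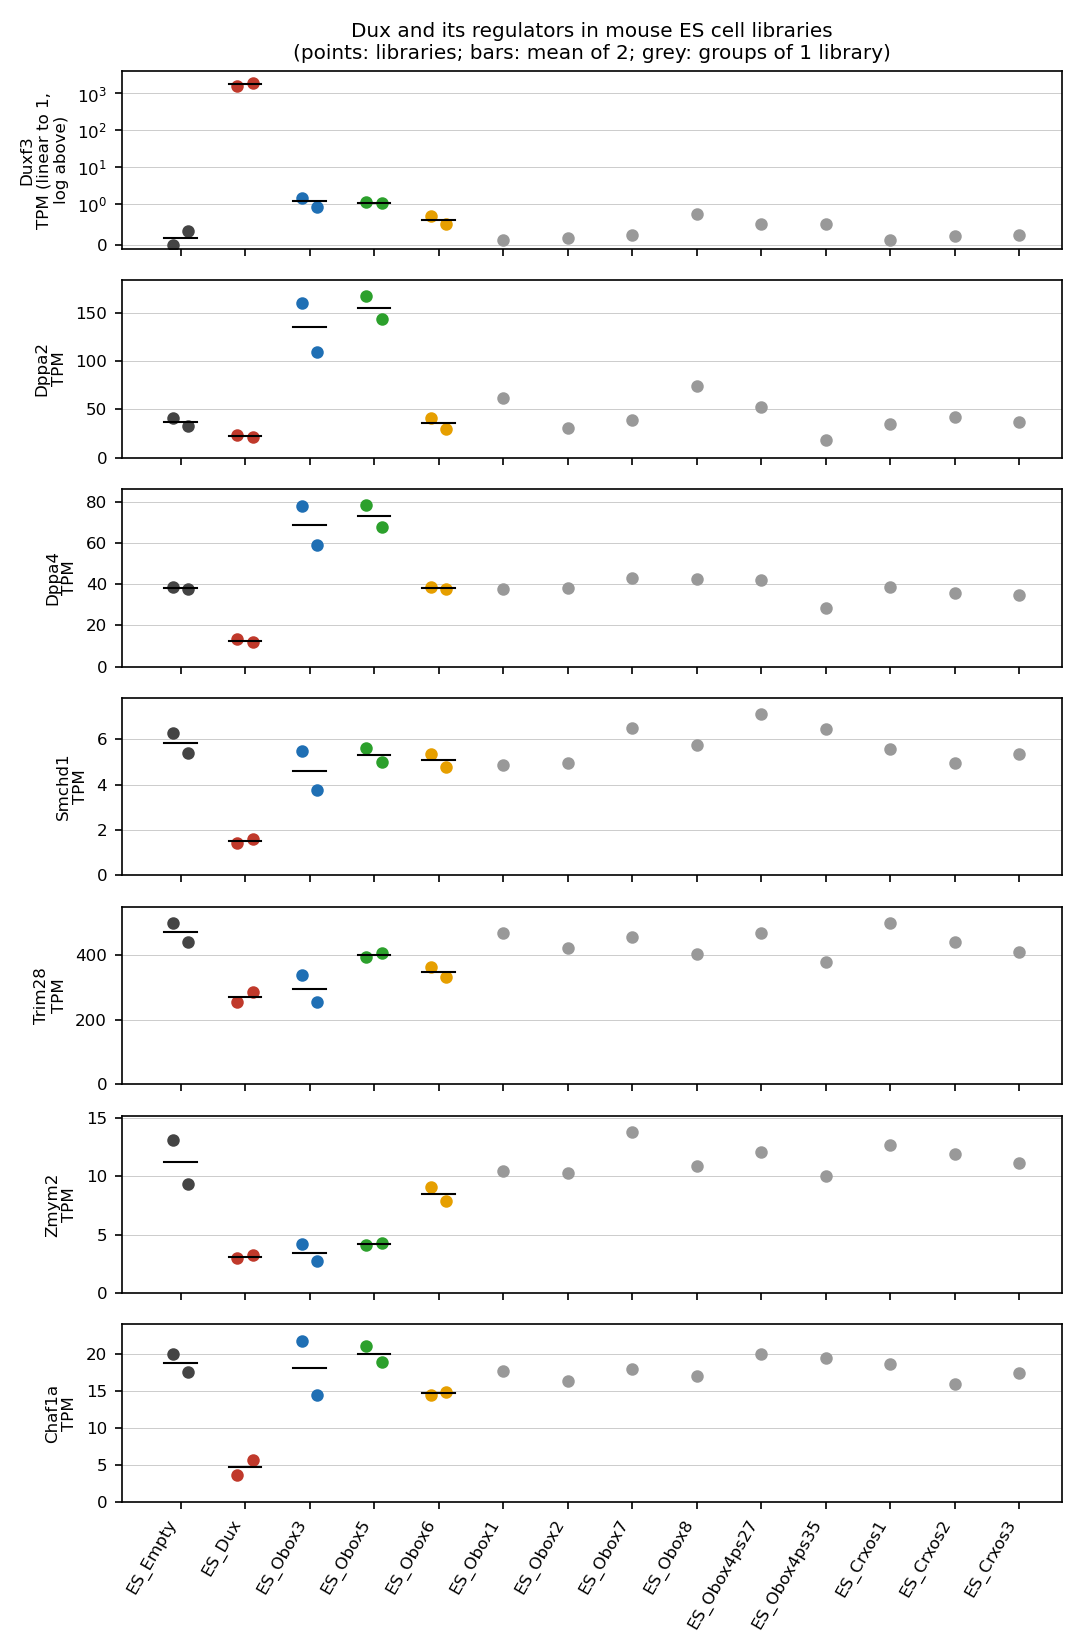
TPM of the 7 genes (y axis; for Duxf3 linear up to 1 TPM and logarithmic above) in the 19 mESC libraries, by group (x axis). Points are libraries and bars the mean of the 2 libraries of a group; Dppa2 and Dppa4 stand highest, and Zmym2 low, in both ES_Obox3 and both ES_Obox5 libraries, while Dppa4, Smchd1 and Chaf1a are lowest in ES_Dux.

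Duxf3 was abundant only where Dux was on the plasmid. The ES_Dux libraries had 1548 and 1979 TPM, a check of the label and not a reading of the cells' own gene, since plasmid and genomic transcripts share their sequence. Near-identical Dux copies exist in the mouse genome, and how reads that fit several copies were treated is not stated, so its level is uncertain in all libraries. In ES_Obox3 the libraries had 1.45 and 0.914 TPM (6.18 and 6.74 reads per kb), and in ES_Obox5 1.13 and 1.05 TPM (4.82 and 5.31 reads per kb). Both ranges lay above the 0 and 0.342 TPM of ES_Empty. The ES_Obox6 libraries had 0.703 and 0.520 TPM, also above ES_Empty.

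These low Duxf3 levels were not called as deposited. The log2 difference from ES_Empty was 0.90 in ES_Obox3 (SE 0.224, adjusted p = 0.0179 by limma), 0.85 in ES_Obox5 (adjusted p = 0.0376) and 0.47 in ES_Obox6 (adjusted p = 0.285). The first was just past the fold threshold after scaling (1.01, adjusted p = 0.00163), and also with the unnumbered ES_Obox3 library left out (1.08, adjusted p = 0.0254) or ES_Empty replicate 2 (1.11, adjusted p = 0.0281). Adding 0.1 in place of 1 TPM before taking logs gave 2.57 in ES_Obox3 and 2.496 in ES_Obox5, both called (adjusted p = 0.0154 and 0.0324), which shows how much a gene listed at or near 0 depends on that choice. In the 9 single libraries Duxf3 ran from 0.122 to 0.747 TPM with a median of 0.246 TPM, highest in ES_Obox8. The other Dux family genes of the tables, Duxbl1, Duxbl2 and Duxbl3, did not pass the filter on low values in mESCs, and Duxbl1 averaged 0.149 ± 0.0282 TPM in ES_Empty and 0.308 ± 0.154 TPM in ES_Obox3 (SD, n = 2).

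Dppa2 rose with Obox3 and with Obox5 and overlapped the control with Obox6. It stood at 160.2 and 109.5 TPM in ES_Obox3 and at 167.1 and 143.4 TPM in ES_Obox5, and every one of these libraries was above the 41.6 and 32.7 TPM of ES_Empty. The log2 fold change was 1.82 in ES_Obox3 (SE 0.252, 95% interval 1.24 to 2.39, adjusted p = 0.00152 by limma) and 2.04 in ES_Obox5 (SE 0.252, adjusted p = 0.00146). Both were also called after scaling, at 2.44 and 2.34. In ES_Obox6 Dppa2 had 41.6 and 29.4 TPM, overlapping ES_Empty, with a log2 difference of -0.07 and a 95% interval from -0.65 to 0.50. Set directly against each other, ES_Obox6 was lower than ES_Obox3 (log2 fold change -1.89, SE 0.252, adjusted p = 0.00322 by limma).

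Its partner Dppa4 was higher in the same libraries, by less. The libraries had 78.2 and 59.2 TPM in ES_Obox3 and 78.4 and 68.0 TPM in ES_Obox5, without overlap with the 38.8 and 37.7 TPM of ES_Empty. The log2 differences, 0.82 (SE 0.188, adjusted p = 0.0134 by limma) and 0.92 (adjusted p = 0.0142), were below the fold threshold as deposited and were called after scaling (1.44 and 1.22). Without the unnumbered ES_Obox3 library the first was 1.01 and called (adjusted p = 0.00770). ES_Obox6, with 38.5 and 37.7 TPM, gave a log2 difference of 0.00 and a 95% interval of -0.43 to 0.42. Oocyte markers, whose summed level was 4.07 to 4.81 TPM in ES_Empty, were at 10.4 to 12.8 TPM in ES_Obox3, 7.37 to 9.18 TPM in ES_Obox5 and 2.06 to 3.59 TPM in ES_Obox6, with 6 to 8 of 8 markers above 0 in these libraries; their part in the Dppa2 and Dppa4 levels was not tested. Fibroblast markers (4 to 7 of 7 above 0 over the mESC libraries) summed to 11.98 to 13.6 TPM in ES_Empty, 1.67 to 3.88 TPM in ES_Obox3 and 3.62 to 4.39 TPM in ES_Obox5. Cumulus cell markers (2 to 6 of 6) summed to 4.58 to 6.25 TPM, 0.449 to 1.08 TPM and 1.21 to 1.41 TPM in the same order. Most of the first sum was S100a6 and of the second Vcan, which fell in ES_Obox3 and ES_Obox5 as deposited and after scaling; the part of these markers was not tested either.

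The ratio of Dppa2 to Dppa4 within a library, which no scaling can change, was higher in the same libraries. It was 1.07 and 0.867 in ES_Empty and 1.08 and 0.780 in ES_Obox6. The ratio was 2.05 and 1.85 in ES_Obox3 and 2.13 and 2.11 in ES_Obox5. The ES_Dux libraries also had high ratios, 1.75 and 1.80. Both genes were low there as deposited, while after scaling Dppa2 was above ES_Empty (0.71) and Dppa4 close to it (-0.14). Among the single libraries the ratio was 1.75 in ES_Obox8 and 1.64 in ES_Obox1 and at most 1.26 in the other 7.

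As deposited, and not after scaling, ES_Dux showed the opposite levels of the activators. Dppa4 fell to 13.3 and 11.98 TPM (log2 fold change -1.52, SE 0.188, adjusted p = 0.000372 by limma), and Dppa2 had 23.4 and 21.5 TPM (-0.69, SE 0.252, adjusted p = 0.0379), every library below ES_Empty. After scaling neither was called and Dppa2 changed sign. Dppa4 was then at -0.14 (adjusted p = 0.4605 by limma). Dppa2 was at 0.71 (adjusted p = 0.0113), above ES_Empty and under the fold threshold. Against ES_Dux directly, both activators were higher in ES_Obox3 (Dppa2 2.51, Dppa4 2.34) and in ES_Obox5 (2.73 and 2.44). These 4 differences were called as deposited, with adjusted p of at most 0.000171, and after scaling, at 1.36 to 1.73.

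Zmym2 fell with Obox3 and Obox5. It had 4.23 and 2.71 TPM in ES_Obox3 and 4.13 and 4.32 TPM in ES_Obox5, against 13.1 and 9.37 TPM in ES_Empty. The log2 fold changes were -1.46 (SE 0.228, 95% interval -1.98 to -0.94, adjusted p = 0.00258 by limma) and -1.21 (SE 0.228, adjusted p = 0.00977). After scaling the sizes were -0.90 in both, under the fold threshold, with adjusted p of 0.00234 and 0.00309. The call in ES_Obox5 was lost without ES_Empty replicate 1 (-0.99, adjusted p = 0.0871), without ES_Obox5 replicate 1 (-1.19, adjusted p = 0.0652) and without the unnumbered ES_Obox5 library (-1.24, adjusted p = 0.0574).

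In ES_Obox6 Zmym2 had 9.03 and 7.88 TPM, just under ES_Empty (log2 difference -0.36, SE 0.228, adjusted p = 0.434 by limma). ES_Obox6 was higher than ES_Obox3 by 1.099 (SE 0.228, adjusted p = 0.0181), a call lost after scaling (0.70), without ES_Obox6 replicate 1 or 2 (adjusted p = 0.111 and 0.0574), with the unnumbered ES_Obox3 library left out (0.85, adjusted p = 0.0666) and with no filter on low values (adjusted p = 0.0578). In the 9 single libraries Zmym2 ran from 10.03 to 13.8 TPM with a median of 11.2 TPM, all above every ES_Obox3, ES_Obox5, ES_Obox6 and ES_Dux library.

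Trim28 stayed the most abundant of the 7 genes in every mESC library outside ES_Dux, and no difference from ES_Empty in its level was called. It had 336.8 and 253.9 TPM in ES_Obox3 (log2 difference -0.68, SE 0.194, adjusted p = 0.0297 by limma), 392.2 and 406.7 TPM in ES_Obox5 (-0.23, adjusted p = 0.468) and 362.8 and 329.8 TPM in ES_Obox6 (-0.43, adjusted p = 0.258). After scaling the differences were -0.03 in ES_Obox3 and 0.0855 in ES_Obox5. The ratio of Trim28 to Zmym2 within a library separated the groups: it was 38.0 and 46.9 in ES_Empty, 40.2 and 41.9 in ES_Obox6 and 32.9 to 45.0 in the single libraries, but 79.6 and 93.7 in ES_Obox3, 94.9 and 94.2 in ES_Obox5 and 84.3 and 88.5 in ES_Dux.

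Smchd1 and Chaf1a overlapped with the control in ES_Obox3 and ES_Obox5. Smchd1 had 5.46 and 3.77 TPM in ES_Obox3 (log2 difference -0.30, 95% interval -0.76 to 0.16) and 5.61 and 4.99 TPM in ES_Obox5 (-0.12, 95% interval -0.58 to 0.34); both changed sign after scaling (0.23 and 0.14). Chaf1a had 21.9 and 14.5 TPM in ES_Obox3 (-0.07, 95% interval -0.62 to 0.48) and 21.1 and 19.0 TPM in ES_Obox5 (0.09). After scaling the Chaf1a differences were 0.53 in ES_Obox3 (adjusted p = 0.0308 by limma) and 0.38 in ES_Obox5 (adjusted p = 0.115). Both were under the fold threshold. The intervals are those of TPM as deposited, and with 2 libraries a group changes of a size inside them are not excluded.

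In ES_Dux the 4 repressors were all lower than in every ES_Empty library. Zmym2 had 3.00 and 3.23 TPM, Smchd1 1.45 and 1.62 TPM and Chaf1a 3.71 and 5.68 TPM, and all 3 fell, by 1.56, 1.43 and 1.82 on the log2 scale (adjusted p = 0.000622, 0.000543 and 0.000442 by limma). Trim28 had 252.9 and 286.2 TPM (-0.80, SE 0.194, adjusted p = 0.00647). After scaling no repressor was called, the first 3 had log2 differences of -0.33, -0.37 and -0.53, and Trim28 was at 0.65, the opposite sign. Most genes were lower in ES_Dux before scaling, as the shares in the next paragraph show.

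Of the 7 genes 5 were called in ES_Dux against ES_Empty (Duxf3 higher, and Dppa4, Smchd1, Zmym2 and Chaf1a lower), where 48.5% of the 20355 genes tested were called; 44.4% of all genes were called lower. After scaling 1 was called, Duxf3, where 9.12% of all genes were. In ES_Obox3 and in ES_Obox5 2 were called, Dppa2 higher and Zmym2 lower, where 18.3% and 10.3% of all genes were called, and after scaling 3 (Duxf3, Dppa2 and Dppa4; background 11.5%) and 2 (Dppa2 and Dppa4; 8.48%). In ES_Obox6 0 of 7 were called by limma, where 4.38% of all genes were, and after scaling also 0 (4.11%). As deposited 0 of the 7 had an unadjusted p under 0.05, where 4049 of the 20355 genes tested did. After scaling 1 of the 7 did, with no count over all genes made. Duxf3 passed the filter on low values in mESCs only through the ES_Dux, ES_Obox3 and ES_Obox5 libraries, so its part in these counts was partly set by the filter. In ES_Dux its call was set by the plasmid.

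**Figure D2:**
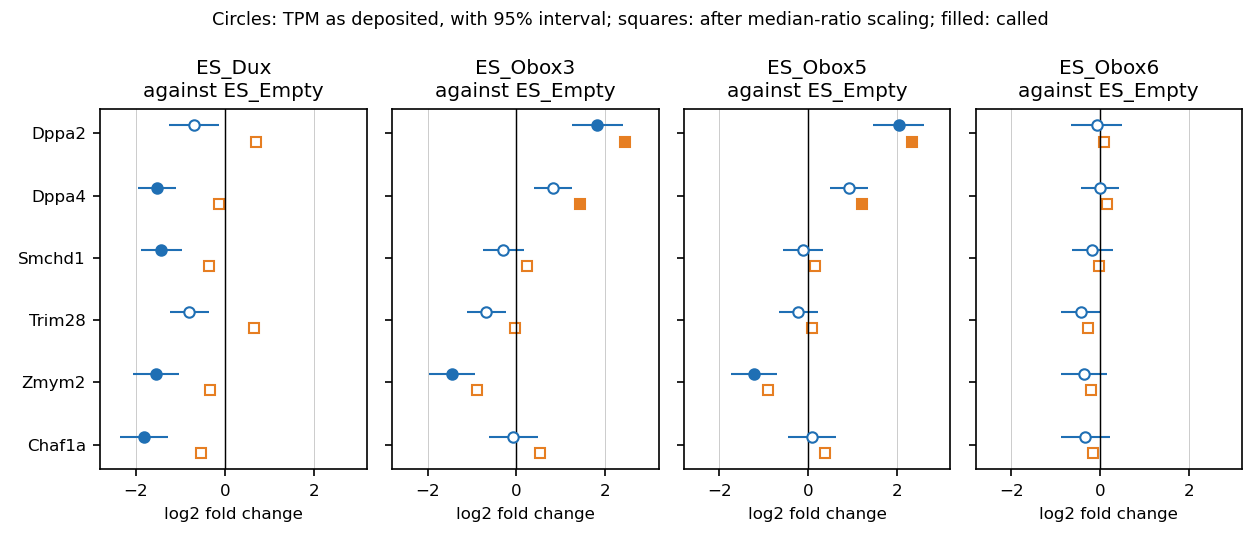
Log2 fold change on log2(TPM + 1) (x axis) of the 6 regulators (y axis) in ES_Dux, ES_Obox3, ES_Obox5 and ES_Obox6 against ES_Empty, 2 libraries each. Circles are TPM as deposited with the 95% interval, squares are after median-ratio scaling, and filled symbols are called; Dppa2 is right of 0 and Zmym2 left of 0 on both scales with Obox3 and Obox5, while the ES_Dux circles lie left of their squares.

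Against ES_Dux, 5 of the 7 genes were called in each of ES_Obox3 (23.7% of all genes), ES_Obox5 (31.8%) and ES_Obox6 (40.1%). Duxf3 is in each of these counts, and its difference was set by the Dux plasmid. In ES_Obox3 and ES_Obox5 Duxf3 was lower and Dppa2, Dppa4, Smchd1 and Chaf1a were higher. The Smchd1 call in ES_Obox3 was lost without ES_Obox3 replicate 1 (0.91, adjusted p = 0.0123). In ES_Obox6 Zmym2 took the place of Dppa2 (Zmym2 1.20, SE 0.228, adjusted p = 0.00256 by limma). After scaling 4, 3 and 1 were called, where 17.5%, 13.9% and 13.3% of all genes were. Duxf3 was again in each count. Beside it were Dppa2, Dppa4 and Chaf1a in ES_Obox3, Dppa2 and Dppa4 in ES_Obox5, and no regulator in ES_Obox6. Trim28 was not called in any of the 3 and changed sign in all of them on scaling, from 0.12, 0.57 and 0.36 to -0.69, -0.57 and -0.92. ES_Obox6 against ES_Obox3 called 2 of 7, Dppa2 and Zmym2, where 9.13% of all genes were called, and after scaling also 2, Dppa2 and Dppa4 (7.46%). Dppa4, at -0.82 as deposited (SE 0.188, adjusted p = 0.0256), was called there with the unnumbered ES_Obox3 library left out (-1.02, adjusted p = 0.0161).

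Dppa2 and Zmym2 together gave the clearest split among the mESC libraries. The ratio of Dppa2 to Zmym2 was 3.17 and 3.49 in ES_Empty, 37.9 and 40.4 in ES_Obox3 and 40.5 and 33.2 in ES_Obox5. It was 4.61 and 3.74 in ES_Obox6 and 7.79 and 6.65 in ES_Dux. The single libraries ran from 1.85 in ES_Obox4ps35 to 6.85 in ES_Obox8, so the 4 libraries with the Obox3 or Obox5 plasmid stood apart from the other 15, whose highest ratio was 7.79. Chaf1a over Zmym2 split them the same way, at 4.40 to 5.35 in the 4 ES_Obox3 and ES_Obox5 libraries and at most 1.95 in the other 15.

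**Figure D3:**
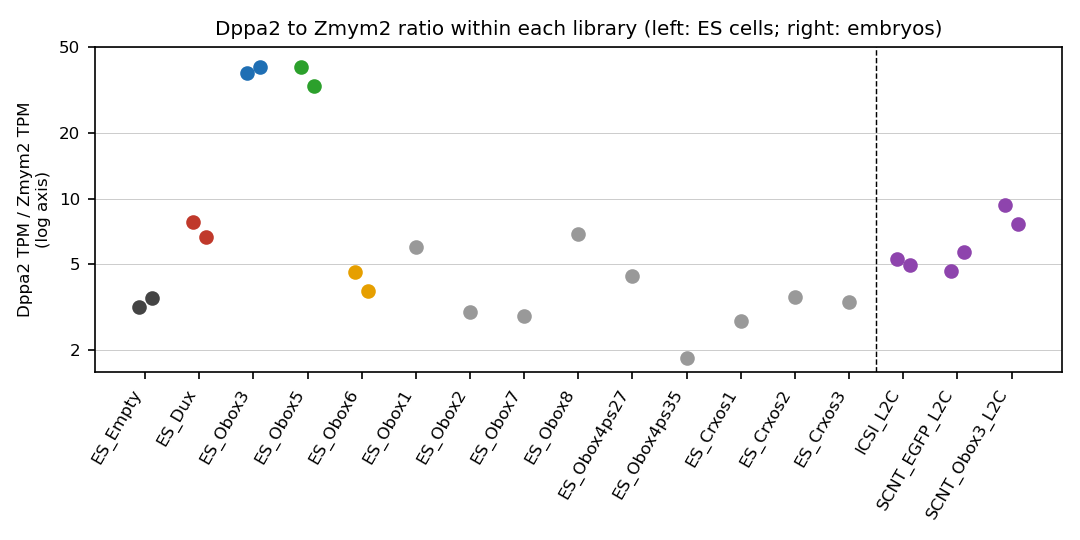
Ratio of Dppa2 TPM to Zmym2 TPM within each library (y axis, logarithmic) by group (x axis), with mESC groups left and embryo groups right of the dashed line; points are libraries. The ES_Obox3 and ES_Obox5 libraries lie between 33.2 and 40.5, all other mESC libraries between 1.85 and 7.79, and the SCNT_Obox3_L2C libraries at 9.33 and 7.65 above the other embryos.

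In the single libraries, which allow no test, 0 of the 63 differences between a member and the ES_Empty mean were past 2-fold on log2(TPM + 1), as deposited or after scaling. That count includes Duxf3, which at 0.122 to 0.747 TPM did not pass the filter behind the shares below. At such levels adding 1 TPM keeps the log2 difference small. The share of all genes past 2-fold as deposited was 7.17% in ES_Crxos1, 7.29% in ES_Crxos2, 9.92% in ES_Crxos3, 7.92% in ES_Obox1, 7.19% in ES_Obox2, 10.4% in ES_Obox7, 10.4% in ES_Obox8, 8.34% in ES_Obox4ps27 and 8.51% in ES_Obox4ps35. In the same order it was 6.84%, 7.43%, 9.51%, 7.96%, 7.31%, 9.5%, 10.1%, 7.88% and 8.68% after scaling. The differences nearest to 2-fold were those of Dppa2 in ES_Obox8 (74.3 TPM, log2 difference 0.99), in ES_Obox4ps35 (18.6 TPM, -0.95) and in ES_Obox1 (62.0 TPM, 0.73). Dppa4 was at 42.6, 28.4 and 37.9 TPM in the same 3 libraries. Trim28 ran from 377.9 to 497.6 TPM, Smchd1 from 4.88 to 7.10 TPM and Chaf1a from 15.96 to 20.1 TPM over the 9 libraries.

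Genes with profiles most like those of the 7 were sought among 8370 genes of at least 5 TPM on average, by Pearson's r of scaled log2(TPM + 1) across the 19 mESC libraries, as a description. For Dppa2 they were Smyd5 (r = 0.967), Grb2 (0.963) and Gm20509 (0.962), and for Dppa4 Surf6 (0.974), Alms1 (0.974) and Cdk2ap1 (0.973). For Zmym2 they were Dsg2 (0.953), Ssh1 (0.953) and Plxnb2 (0.943). For Trim28 the leading gene was Eif5a (0.959), for Chaf1a Nek2 (0.950) and for Smchd1 Gmeb2 (0.900). For Duxf3 they were AW822073 (0.997), Gm21761 (0.996) and Gm13078 (0.996), which rests on the 2 ES_Dux libraries, and outside ES_Dux they were Tcirg1, Kif23 and Crocc (0.960 to 0.965 over 17 libraries). The libraries share groups and controls, and for Dppa2, Dppa4 and Zmym2 the values rest largely on the 4 ES_Obox3 and ES_Obox5 libraries.

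Genes known to be activated by Dux were examined as well. Whether Dux acted on them in the Obox groups was not tested. Of 30 listed targets 29 passed the filter, and all 29 rose in ES_Dux, where 4.12% of all genes were called higher, a count that the filter favours where a gene passed it through those libraries. AW822073 went from 0.105 ± 0.148 to 2882 ± 261.3 TPM and Zscan4d from 0.0521 ± 0.00988 to 1135 ± 138 TPM (SD, n = 2). In ES_Obox3 11 of the 29 rose and 0 fell, where 4.67% of all genes were called higher, with a median log2 difference of 0.76 against -0.42 for all genes. In ES_Obox5 14 rose and 0 fell, against 4.79% of all genes called higher (median 1.05 against -0.20). In ES_Obox6 3 rose and 0 fell, against 2.39% of all genes called higher (median 0.62 against -0.09). Targets at or near 0 TPM in ES_Empty had little room to fall. The levels were far below those in ES_Dux: Arg2, an arginase, was at 7.76 ± 2.47 TPM in ES_Obox3 and 9.84 ± 3.21 TPM in ES_Obox5, from 0.191 ± 0.137 TPM (log2 fold change 2.86 and 3.16, adjusted p = 0.000450 and 0.000494 by limma). Usp17ld, of a deubiquitinase family with near-identical copies, was at 5.65 ± 2.01 and 6.78 ± 2.22 TPM, and it was listed at 0 in both ES_Empty libraries. The summed 2-cell markers were at 4621 to 5234 TPM in ES_Dux, 4.64 to 9.63 TPM in ES_Obox3, ES_Obox5 and ES_Obox6 and 0.345 to 1.96 TPM in ES_Empty.

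Among the other activators and cofactors in ES_Dux, Nelfa, a subunit of the NELF complex that has been linked to Dux activation, rose from 10.75 ± 1.93 to 64.2 ± 1.89 TPM (log2 fold change 2.48, SE 0.243, adjusted p = 0.000207 by limma; 3.87 after scaling), while the acetyltransferase genes Ep300 and Crebbp fell (-1.88 and -1.61; -0.57 and -0.31 after scaling, not called). In ES_Obox3 Trp53, which encodes the p53 protein, fell from 69.1 ± 12.1 to 27.0 ± 4.99 TPM (-1.33, adjusted p = 0.00251 by limma, and -0.70 after scaling). In ES_Obox5 none of the 4 was called, and 2 had an unadjusted p under 0.05, as did 6115 of the 20355 genes tested.

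The genes of the repressors' partners and pathways were mostly lower in ES_Dux. The genes that fell were 5 of 5 histone chaperone genes (Chaf1b -1.44), 7 of 7 TRIM28 and heterochromatin genes (Resf1 -2.11), 6 of 7 genes of the LSD1-CoREST and ZMYM family (Rcor2 -2.05), 6 of 9 PRC1.6 genes (Mga -2.47), 5 of 7 SUMO pathway genes (Uba2 -1.84), 6 of 6 H3K9 and DNA methylation genes (Rif1 -1.93) and the SMCHD1 partner Lrif1 (-1.41). After scaling 1 of these 42 genes was called, Mga at -1.13, and the list medians lay between -0.73 and 0.14. The share of all genes called lower there was 44.4% as deposited and 2.14% after scaling.

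In ES_Obox3 the same 42 genes had 7 called lower and 0 higher, where 13.6% of all genes were called lower, a like share. The 7 were 3 PRC1.6 genes (Rybp -1.25, Yaf2 -1.21, Rnf2 -1.13) and 1 each of the histone chaperones (Asf1a -1.07), the SUMO pathway (Uba2, the SUMO-activating enzyme subunit, -1.37), H3K9 and DNA methylation (Uhrf1, which recruits DNMT1, -1.38) and the LSD1-CoREST list (Hdac2, a histone deacetylase, -1.05). Of the TRIM28 and heterochromatin genes 0 of 7 were called by limma, with 5 at an unadjusted p under 0.05, as were 8853 of the 20355 genes tested. After scaling none of the 7 was called and 3 others were, all higher: L3mbtl2 (1.22), Pias4 (1.51) and Sae1 (1.01), where 7.77% of all genes were called higher. In ES_Obox5 3 were called, where 5.47% of all genes were called lower: Rybp (-1.06) and Uba2 (-1.01) lower, and Pias4, a SUMO ligase that can modify DPPA2, higher, from 21.5 ± 0.942 to 50.5 ± 3.28 TPM (1.20, SE 0.206, adjusted p = 0.00686; 1.49 after scaling). After scaling Rybp (-0.75) and Uba2 (-0.69) were under the fold threshold and Lin28a was called higher with Pias4 (1.04), where 6.09% of all genes were called higher. In ES_Obox6 0 of the 42 were called, where 4.38% of all genes were. At an unadjusted p under 0.05 there were 11 lower and 1 higher, and 4049 of the 20355 genes tested in either direction.

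In late 2-cell embryos, which are past the brief peak of Dux transcription earlier in the 2-cell stage, Duxf3 was higher in the sperm-injected embryos than in the clones. It had 4.40 and 1.97 TPM in ICSI_L2C (32.6 and 9.95 reads per kb), 0.429 and 0.369 TPM in SCNT_EGFP_L2C and 0.745 and 0.258 TPM in SCNT_Obox3_L2C (10.4 and 2.04 reads per kb). All 4 clone libraries lay below both sperm-injected ones, and the injected groups overlapped. Duxf3 fell in SCNT_EGFP_L2C against ICSI_L2C (log2 fold change -1.52, SE 0.383, adjusted p = 0.0335 by limma), a call lost after scaling (-1.38, adjusted p = 0.0580), with no filter on low values (adjusted p = 0.0717) and without SCNT_EGFP_L2C replicate 1 or 2 (adjusted p = 0.126 and 0.109). SCNT_Obox3_L2C differed from ICSI_L2C by -1.43 (adjusted p = 0.0593) and from SCNT_EGFP_L2C by 0.08 (95% interval -0.84 to 1.00). The gene passed the filter through the ICSI_L2C libraries alone.

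Dppa2 and Dppa4 were higher in both libraries with Obox3 mRNA than in either with EGFP mRNA, by differences that were not called as deposited. Dppa2 had 115.3 and 124.5 TPM in ICSI_L2C, 55.8 and 71.0 TPM in SCNT_EGFP_L2C and 166.3 and 135.3 TPM in SCNT_Obox3_L2C. Dppa4 had 121.8 and 138.2 TPM, 67.9 and 69.04 TPM, and 141.6 and 124.2 TPM. The log2 differences between the injected groups were 1.24 for Dppa2 (SE 0.196, 95% interval 0.77 to 1.71, adjusted p = 0.0791 by limma) and 0.94 for Dppa4 (SE 0.164, adjusted p = 0.0864), not called. After scaling Dppa2 was called (1.28, adjusted p = 0.0374) and Dppa4 was just under the fold threshold (0.98, adjusted p = 0.0407). Against ICSI_L2C, SCNT_Obox3_L2C differed by 0.32 (95% interval -0.15 to 0.79) for Dppa2 and 0.03 (-0.36 to 0.42) for Dppa4, and SCNT_EGFP_L2C by -0.92 and -0.91 (adjusted p = 0.0196 and 0.0118), under the fold threshold. Without SCNT_EGFP_L2C replicate 2 the Dppa2 difference was called (-1.09, adjusted p = 0.0253), and without ICSI_L2C replicate 1 that of Dppa4 (-1.003, adjusted p = 0.0373).

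**Figure D4:**
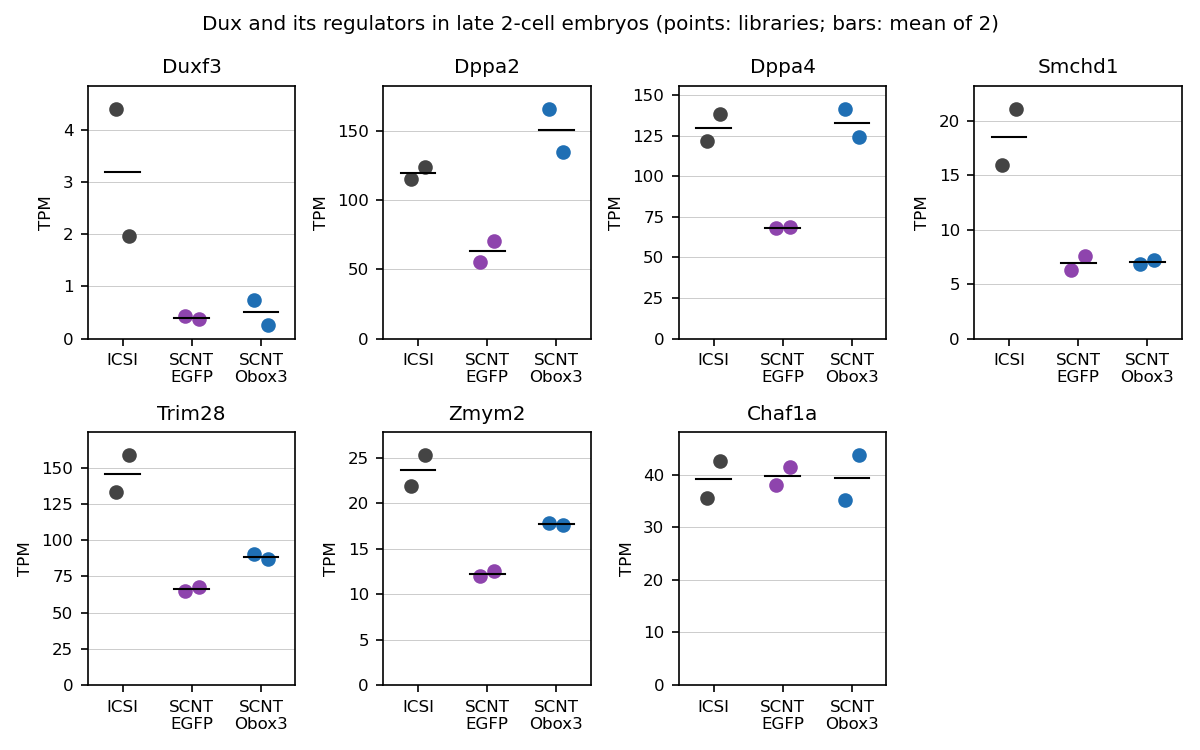
TPM of the 7 genes (y axis, from 0) in the 6 late 2-cell embryo libraries by group (x axis); points are libraries and bars the mean of 2. Dppa2 and Dppa4 are at or above the sperm-injected level with Obox3 mRNA, Smchd1 and Duxf3 overlap between the 2 groups of clones, and Chaf1a overlaps in all groups.

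Among the repressors Smchd1 was the one called in both kinds of clone. It had 15.9 and 21.1 TPM in ICSI_L2C, 6.31 and 7.62 TPM in SCNT_EGFP_L2C and 6.85 and 7.27 TPM in SCNT_Obox3_L2C. It fell by 1.29 (SE 0.209, adjusted p = 0.00886 by limma) and by 1.26 (adjusted p = 0.0172) against ICSI_L2C, called after scaling too (-1.08 and -1.03), and the injected groups differed by 0.02 (95% interval -0.48 to 0.52). The first call was lost without SCNT_EGFP_L2C replicate 1 (-1.17, adjusted p = 0.0568), and the second without ICSI_L2C replicate 2 or either SCNT_Obox3_L2C library (adjusted p = 0.0731 to 0.0791) and with no filter on low values (adjusted p = 0.0530).

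Trim28 and Zmym2 were intermediate with Obox3 mRNA. Trim28 had 133.6 and 158.6 TPM in ICSI_L2C, 65.1 and 68.0 TPM in SCNT_EGFP_L2C and 90.6 and 86.9 TPM in SCNT_Obox3_L2C. It fell in SCNT_EGFP_L2C against ICSI_L2C (-1.12, SE 0.163, adjusted p = 0.00647 by limma; -0.90 after scaling and -0.99 without ICSI_L2C replicate 2, both under the fold threshold). Zmym2 had 22.0 and 25.3 TPM, 12.03 and 12.5 TPM, and 17.8 and 17.7 TPM in the same order, with a difference of -0.89 (adjusted p = 0.0130) between SCNT_EGFP_L2C and ICSI_L2C. Between the injected groups the differences were 0.41 for Trim28 (adjusted p = 0.260) and 0.50 for Zmym2 (adjusted p = 0.195). Chaf1a was at 35.5 and 42.7 TPM, 38.0 and 41.6 TPM, and 35.2 and 43.6 TPM, overlapping throughout.

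Of the 7 genes 3 were called in SCNT_EGFP_L2C against ICSI_L2C, Duxf3, Smchd1 and Trim28, all lower. There 17.3% of the 18252 genes tested were called and 12.5% were called lower. Duxf3 passed the filter through ICSI_L2C alone, so its part in this count was partly set by the filter. With no filter it was not called (adjusted p = 0.0717 by limma). After scaling 1 was called, Smchd1 (14.9%). In SCNT_Obox3_L2C against ICSI_L2C 1 was called, Smchd1 (9.11% of all genes), and after scaling also 1 (7.90%). In SCNT_Obox3_L2C against SCNT_EGFP_L2C 0 of 7 were called by limma, where 28 genes or 0.153% of all genes were called (0 with no filter on low values). After scaling 1 was called, Dppa2 (1.58%). As deposited 4 of the 7 had an unadjusted p under 0.05 (Dppa2, Dppa4, Trim28 and Zmym2, all higher with Obox3). So did 3294 of the 18252 genes tested, in either direction. Oocyte markers were present in every embryo library (8 of 8), with sums of 452.1 to 468.1 TPM in ICSI_L2C, 433.5 to 474.4 TPM in SCNT_EGFP_L2C and 337.6 to 378.9 TPM in SCNT_Obox3_L2C, and their part in the differences was not tested. Markers of cumulus cells, the nuclear donors, summed to 0.761 to 2.68 TPM over all 6 libraries.

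The Dux targets were mostly lower in the clones. Of 29 tested 26 fell and 0 rose in SCNT_EGFP_L2C against ICSI_L2C (median log2 difference -2.68 against -0.20 for all genes, of which 12.5% were called lower), and 19 fell and 0 rose in SCNT_Obox3_L2C (-1.94 against -0.22, with 6.31% of all genes called lower). Of the 29, 4 were under 1 TPM in every clone library and passed the filter through ICSI_L2C alone, so that for them a difference was set by the filter. Zscan4a was at 57.5 ± 13.8 TPM in ICSI_L2C, 0.449 ± 0.185 TPM in SCNT_EGFP_L2C and 2.42 ± 0.391 TPM in SCNT_Obox3_L2C (SD, n = 2). Between the injected groups 0 of 29 were called by limma, where 0.153% of all genes were. At an unadjusted p under 0.05 there were 13 higher and 0 lower, and 3294 of the 18252 genes tested in either direction. After scaling 4 were called higher, where 1.41% of all genes were. Among genes of the repressors' partners and pathways, in SCNT_EGFP_L2C against ICSI_L2C, Hdac1, a histone deacetylase, fell from 127.1 ± 3.13 to 44.4 ± 1.28 TPM (-1.496, SE 0.148, adjusted p = 0.00257 by limma), and of the PRC1.6 genes L3mbtl2 fell (-1.24) and E2f6 rose (1.23). In SCNT_Obox3_L2C against ICSI_L2C Setdb1, the H3K9 methyltransferase that TRIM28 recruits, fell (-1.02, adjusted p = 0.0186; -0.78 after scaling), and Ehmt2, an H3K9 methyltransferase gene, rose (1.20, adjusted p = 0.0131). Between the injected groups 0 of the 41 genes tested on these lists were called by limma, with 10 higher and 3 lower at an unadjusted p under 0.05. Over all genes 3294 of 18252 had such a p, in either direction.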

How the data were processed

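RNA-seq of 25 of the 88 samples of the series was used, 19 mESC and 6 embryo libraries, each measurement being total RNA from whole-cell lysate made into libraries with a stranded SMART-seq kit; the other 63 samples were not analysed here. The authors deposited TPM per gene in 2 tables, one for mESCs and one for embryos, normalised separately, so tests were made within a table. HISAT2, Trim Galore and featureCounts 1.6.5 and the build mm10 are named in the submitters' processing notes; how reads that map to several places were counted is not given in the sources used here. Values were not turned back into counts: the value of 1 read per kb was read from 3138 short genes, and 17.8 to 22.0% of mESC values fell midway between whole reads. Columns of ES_Dux, ES_Obox3 and ES_Obox5 whose number matched no title are called unnumbered. They carry the same number in all of these groups, and whether they were made together is not stated.

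Log2(TPM + 1) was fitted with limma 3.58.1 (R 4.3.3, statmod 1.5.0, trended and robust) over genes of at least 1 TPM in at least 2 fitted libraries: 20355 genes in 10 mESC libraries of 5 groups (5 residual degrees of freedom) and 18252 in 6 embryo libraries of 3 groups (3). P-values were adjusted by the Benjamini-Hochberg method over all genes. Intervals are 95%. The fit was tested on simulated data. Alternatives were median-ratio scaling, a pseudocount of 0.1, no filter, only the 2 groups compared, each library left out and a replicate block. Nothing states that replicates came from separate cultures or embryo pools, so p-values describe how much these libraries vary, and that variation may be technical.

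The 7 genes and the lists were chosen with earlier results of these data known. For each comparison and list, up to 3 called genes with the largest log2 fold change could be named; a result of 1 listed gene is not reported here. Symbols were those of the gene-name table, in which 54312 of 55364 identifiers were found. The analysis used Python 3.11.15, pandas 2.3.3, numpy 2.4.6 and matplotlib 3.10.9.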

Additional observations from a re-analysis of the deposited data

Results flagged for a closer look

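Trim28 and Zmym2 lay on opposite sides of their controls in the 2 settings that received Obox3. Against the mean of ES_Empty, the ES_Obox3 libraries differed in Trim28 by -0.473 and -0.879 and in Zmym2 by -1.21 and -1.71 on the log2 scale. Against the mean of SCNT_EGFP_L2C, the SCNT_Obox3_L2C libraries differed by 0.439 and 0.380 in Trim28 and by 0.504 and 0.494 in Zmym2. The fitted values in mESCs were -0.676 for Trim28 and -1.46 for Zmym2. After median-ratio scaling the Trim28 difference in mESCs was -0.03, and that of Zmym2 was -0.90. The difference between the settings was not tested, because the tables were normalised separately.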

How the results depend on the processing

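Values are log2 differences as in the report, and the cause of each change below was not tested. Median-ratio scaling turned the sign of Dppa2 in ES_Dux (0.71) and ES_Obox6 (0.092) against ES_Empty and in ES_Obox6 against ES_Dux (-0.62); of Dppa4 in ES_Obox6 against ES_Empty (0.16); of Smchd1 in ES_Obox3 (0.23) and ES_Obox5 (0.14) against ES_Empty and in ES_Obox6 against ES_Obox3 (-0.26); of Trim28 in ES_Dux (0.65) and ES_Obox5 (0.0855) against ES_Empty, in ES_Obox3 (-0.69), ES_Obox5 (-0.57) and ES_Obox6 (-0.92) against ES_Dux and in ES_Obox6 against ES_Obox3 (-0.23); of Zmym2 in ES_Obox3 and ES_Obox5 against ES_Dux (-0.57 each); and of Chaf1a in ES_Obox3 against ES_Empty (0.53) and SCNT_Obox3_L2C against SCNT_EGFP_L2C (0.016).

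Leaving out 1 library at a time gave ranges across 0 for Chaf1a in ES_Obox3 against ES_Empty (-0.35 to 0.21), ES_Obox6 against ES_Obox3 (-0.54 to 0.021), SCNT_EGFP_L2C against ICSI_L2C (-0.10 to 0.16), SCNT_Obox3_L2C against ICSI_L2C (-0.14 to 0.16) and SCNT_Obox3_L2C against SCNT_EGFP_L2C (-0.17 to 0.13). The same held for Dppa2 (-0.32 to 0.17) and Dppa4 (-0.024 to 0.016) in ES_Obox6 against ES_Empty, Dppa4 in SCNT_Obox3_L2C against ICSI_L2C (-0.062 to 0.12), Duxf3 (-0.15 to 0.32) and Smchd1 (-0.10 to 0.14) in SCNT_Obox3_L2C against SCNT_EGFP_L2C, Smchd1 in ES_Obox6 against ES_Obox3 (-0.093 to 0.35), and Trim28 (-0.0835 to 0.32) and Zmym2 (-0.15 to 0.35) in ES_Obox3 against ES_Dux.

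Scaling moved the count of the 7 genes called from 5 to 1 in ES_Dux against ES_Empty, from 5 to 3 in ES_Obox5 and to 1 in ES_Obox6 against ES_Dux, from 3 to 1 in SCNT_EGFP_L2C against ICSI_L2C and from 0 to 1 in SCNT_Obox3_L2C against SCNT_EGFP_L2C. Duxf3 is in every count that involves ES_Dux, set there by the plasmid. It is also in the 3 of SCNT_EGFP_L2C, where it passed the filter through ICSI_L2C alone. No filter gave 1 in ES_Obox6 against ES_Obox3 and 0 in SCNT_Obox3_L2C against ICSI_L2C, and a pseudocount of 0.1 gave 4 past 2-fold in the single libraries, 3 of them Duxf3, where 17.6 to 23.2% of all genes were. With 1 library left out the counts ran from 2 to 4 in ES_Obox3 and 1 to 2 in ES_Obox5 against ES_Empty, 1 to 2 in ES_Obox6 against ES_Obox3, 1 to 3 in SCNT_EGFP_L2C against ICSI_L2C and 0 to 1 in SCNT_Obox3_L2C against ICSI_L2C; a lone library of a group is then assumed to vary like the other groups.

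Over all genes, the count called ran from 1856 (scaling) to 12111 (pseudocount 0.1) around 9867 in ES_Dux against ES_Empty, and in SCNT_Obox3_L2C against SCNT_EGFP_L2C from 0 (no filter) to 289 (scaling) around 28, with 0 to 5 when 1 library was left out. Where groups had both libraries numbered, same-numbered libraries hardly deviated together. The deviations correlated at 0.0457 between ES_Empty and ES_Obox6, the only mESC groups that could be checked, and at 0.0141 to 0.0666 in embryos. Pairing in ES_Dux, ES_Obox3 and ES_Obox5 was not tested. The fit with a replicate block could use numbered libraries only, so it also dropped the unnumbered ones and left 1 library each for ES_Dux, ES_Obox3 and ES_Obox5. In that fit 0 of all genes, and so 0 of the 7, were called in ES_Obox3 and ES_Obox5 against ES_Empty and in ES_Obox6 against ES_Obox3, Chaf1a in ES_Obox3 against ES_Empty was at 0.18 and Smchd1 in ES_Obox6 against ES_Obox3 at -0.014, while Dppa2 was at 1.88 in ES_Obox3 (adjusted p = 0.0868) and 1.94 in ES_Obox5 (adjusted p = 0.119), and Zmym2 at -1.365 and -1.39 with the same adjusted p. Depth limits Duxf3 in mESCs outside ES_Dux, where it had at most 6.74 reads per kb.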
